A study of Homo sapiens with 36 samples.

Results

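The miR-181 family was followed through cellular senescence of WI-38 cells, a normal human lung fibroblast line. Its members were taken by name, as the 7 rows of the deposited small RNA count table that hold hsa-miR-181a-5p, hsa-miR-181a-3p, hsa-miR-181a-2-3p, hsa-miR-181b-5p, hsa-miR-181c-5p, hsa-miR-181c-3p and hsa-miR-181d-5p (hsa, for human, is left out from here on), among 1508 listed miRNAs. The study compared 18 conditions with 2 libraries each (36 libraries). Ctrl are untreated young proliferating cells. Plasma membrane damage-dependent senescence (PMD-Sen) was induced with 0.0095% sodium dodecyl sulphate (SDS), a detergent, for 24 h. DNA damage response-dependent senescence (DDR-Sen) was induced with 250 nM doxorubicin (DXR), a topoisomerase inhibitor, also for 24 h. In both series the cells were collected at the end of treatment (D0), daily from D1 to D4, and then at D6, D8 and D16. Replicatively senescent cells (RS) were reached by passage to a population doubling level of 54 to 56. All conditions come from this one line, the labels call the libraries of a condition biological replicates, and the untreated cells are of one time only, so every treated time point shares the same 2 Ctrl libraries. No part of the family was altered by design.

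A mature miRNA guides Argonaute to mRNAs that pair with its seed, the bases 2 to 8 from its 5′ end, and lowers their translation and stability. Each hairpin can give a 5p and a 3p strand, one of which is usually retained as the guide while the other is degraded. In the miR-181 family the 5p strands are the usual guides. They are best known for tuning T-cell receptor signalling, and have been described as regulators of BCL2-family survival proteins, the DNA damage kinase ATM and the deacetylase SIRT1. miR-181a and miR-181b have also been described in senescent keratinocytes.

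The mature sequences are shown because the 4 5p members are one seed family while the 3p members are not, and because closely alike members can share reads. Capitals mark the seed, and the sequences are those of RefSeq for GRCh38.p14, in which all 7 members were matched by name.
miR-181a-5p: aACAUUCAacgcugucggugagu
miR-181b-5p: aACAUUCAuugcugucggugggu
miR-181c-5p: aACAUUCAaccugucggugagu
miR-181d-5p: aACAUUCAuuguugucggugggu
miR-181a-3p: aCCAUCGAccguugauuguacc
miR-181a-2-3p: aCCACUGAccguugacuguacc
miR-181c-3p: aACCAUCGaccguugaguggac

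All 4 5p members have the seed ACAUUCA, so they read the same seed matches in mRNAs. The 3 3p members have 3 different seeds. The seed of miR-181a-3p is CCAUCGA, that of miR-181a-2-3p is CCACUGA and that of miR-181c-3p is ACCAUCG. With positions counted from 1 at the 5′ end, miR-181b-5p differs from miR-181a-5p by the substitutions A9U, C10U and A21G. miR-181d-5p differs from miR-181b-5p by C12U alone. miR-181c-5p, of 22 nt, is 1 edit away from the 23 nt of miR-181a-5p. miR-181a-2-3p differs from miR-181a-3p by U5C, C6U and U16C, of which U5C and C6U lie in the seed. In RefSeq miR-4262 has the same seed as the 5p members, and it is not in the count table used here.

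The family is made from 3 pairs of genes. On chromosome 1, MIR181A1 and MIR181B1 lie 61 bases apart in an intron of the non-coding gene MIR181A1HG. They encode miR-181a-5p at chr1:198859108-198859130, miR-181a-3p at chr1:198859069-198859090 and miR-181b-5p at chr1:198858925-198858947, all on the minus strand. On chromosome 9, MIR181A2 and MIR181B2 lie 1158 bases apart in an intron of MIR181A2HG, on the strand opposite to an intron of NR6A1. They encode the same miR-181a-5p at chr9:124692480-124692502, miR-181a-2-3p at chr9:124692518-124692539 and miR-181b-5p at chr9:124693725-124693747 on the plus strand. On chromosome 19, MIR181C and MIR181D lie 66 bases apart in an intron of NANOS3, with miR-181c-5p at chr19:13874725-13874746, miR-181c-3p at chr19:13874763-13874784 and miR-181d-5p at chr19:13874910-13874932 on the plus strand. The counts of miR-181a-5p and miR-181b-5p therefore sum 2 genes each, whereas miR-181a-3p and miR-181a-2-3p each name 1 of the 2 miR-181a genes.

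The libraries held between 81668 and 1933435 miRNA counts, with a median of 376989. PMD-Sen D0 was the shallowest condition and PMD-Sen D16 replicate 1 the deepest library. The whole family made up 0.561% to 1.84% of the counts of a library. Replicates differed by more than counting error in every condition. The chi-square per degree of freedom was lowest in DDR-Sen D4 (4.02) and highest in RS (99.1). It also grows with depth, so it does not rank the conditions by replicate spread alone. The 7 fibroblast miRNAs examined had a summed level of 119199 to 226551 CPM (counts scaled to a common library total, after correction of the totals by the trimmed mean of M values), most of it from miR-100-5p (median 77604 CPM) and miR-21-5p (median 59950 CPM). Summed levels were 0 to 12.6 CPM for the 4 listed blood miRNAs, 14.6 to 163 CPM for 6 epithelial, 0 to 41.9 CPM for 3 muscle and 0 to 17.6 CPM for 2 neural ones. The liver miRNA miR-122-5p reached 6.44 to 264 CPM. In RS the blood and neural sums were 0 CPM, the epithelial sum was 48.3 to 85.9 CPM and the fibroblast sum was 126598 to 205073 CPM, against 165078 to 167568 CPM in Ctrl. The epithelial sum was 28.6 to 73.1 CPM in Ctrl. The muscle sum was 4.77 to 41.9 CPM in RS, where 1 library had the highest value of all 36, and 4.30 to 8.58 CPM in Ctrl, and miR-122-5p was at 6.44 to 169 CPM in RS and 14.3 to 98.8 CPM in Ctrl. The part of these miRNAs in the results for RS was not tested. Since these are pooled cells, fewer cells of a type and less RNA per cell cannot be told apart.

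Within the family, miR-181a-5p was the most abundant member in every library and held 50.1% to 74.7% of the family counts of a library. It ranked 35 of 1508 listed miRNAs by mean level, and miR-181b-5p ranked 47, with 22.6% to 45.8% of the family counts. All members are 22 or 23 nt long, and CPM was not scaled by length. How evenly the library preparation recovers the different members was not measured. The other members were scarce. Over all 36 libraries miR-181a-2-3p had 2420 counts, miR-181d-5p 1410.5, miR-181a-3p 714, miR-181c-5p 680 and miR-181c-3p 138, against 80595.5 for miR-181a-5p and 44566 for miR-181b-5p. The fractional counts arose where reads were divided between miRNAs that they matched equally, and 22 of the 36 values of miR-181b-5p and 21 of those of miR-181d-5p were not whole numbers. The share of reads divided between these 2 members is not known from the table. miR-181c-3p was at 0 in 7 libraries and did not pass the filter on low counts, so 6 of the 7 members were among the 360 miRNAs tested. Of the rows named miR-181 outside the 7, miR-181b-3p had 97 counts, miR-181b-2-3p 11 and miR-181d-3p 10.

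RS cells had the highest level of the 5p seed family. The levels of the 4 5p members summed to 6240 and 6674 CPM in the Ctrl libraries and to 16157 and 19045 CPM in the RS libraries, while the highest of the other libraries had 9887 CPM. Against Ctrl, miR-181a-5p, miR-181b-5p and miR-181c-5p rose in RS, as 3 of the 6 tested members, and no member fell (a call is an adjusted p under 0.05 from the edgeR quasi-likelihood F test with Benjamini-Hochberg adjustment over all 360 miRNAs). The share of all tested miRNAs called in this comparison was 22.5%, and 10.3% of all tested miRNAs were called as higher. The median log2 fold change of the 6 members was 0.55, and that of all tested miRNAs was 0.12. In the same comparison 2 of the 7 fibroblast miRNAs fell and none rose, miR-145-5p (log2 fold change -1.20, SE 0.24, edgeR adjusted p = 0.000266) and the row shared by miR-199a-3p and miR-199b-3p (-0.83, SE 0.30, edgeR adjusted p = 0.0438), and their median was -0.58. Their part in the result was not tested.

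Levels of a pair of libraries are given in the order of replicate 1 and replicate 2. miR-181a-5p was at 3197 and 3542 CPM in Ctrl and at 10795 and 14388 CPM in RS, with means of 3370 ± 243 and 12591 ± 2540 CPM (SD, n = 2). Both RS libraries lay above all others, the highest of which was at 6276 CPM. The log2 fold change was 1.90 (SE 0.18, a fold of 3.74, edgeR adjusted p = 2.05e-09), the third smallest p of the 360 miRNAs. The SE rests on a spread estimated over all 18 conditions together. The chi-square between replicates, which also grows with depth, was highest in RS. Over the settings other than leaving out a library, the adjusted p (edgeR or DESeq2) was at most 0.000341. The RS libraries themselves differed, and the log2 fold change was 1.54 without RS replicate 2 and 2.09 without RS replicate 1.

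miR-181b-5p, encoded beside miR-181a-5p in both host genes, was at 2918 and 2992 CPM in Ctrl and at 5128 and 4347 CPM in RS. Its log2 fold change was 0.68 (SE 0.18, a fold of 1.60, edgeR adjusted p = 0.00609). The order of the RS replicates was opposite to that of miR-181a-5p, with replicate 1 the higher for miR-181b-5p and the lower for miR-181a-5p. The call was lost without Ctrl replicate 1 (edgeR adjusted p = 0.0524) and without RS replicate 1 (edgeR adjusted p = 0.0588). It was also lost without a filter on low counts (edgeR adjusted p = 0.106) and in a fit of the 4 libraries alone (edgeR adjusted p = 0.165).

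miR-181c-5p, the member from chromosome 19, was at 12.9 and 31.5 CPM in Ctrl, which are 3 and 11 counts, and at 112 and 164 CPM in RS, which are 47 and 102 counts. Outside RS its highest library was at 65.5 CPM, in PMD-Sen D6. The log2 fold change in RS was 2.56 (SE 0.58, a fold of 5.89, edgeR adjusted p = 0.00126), with a 95% interval of 1.38 to 3.74 that reflects the few Ctrl counts. It was 3.40 without Ctrl replicate 2 and 2.11 without RS replicate 2, and passed the threshold in each case.

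miR-181d-5p, from the gene next to that of miR-181c-5p, was not called in RS, with 112 and 109 CPM in Ctrl, 122 and 147 CPM in RS and a log2 fold change of 0.29 (95% interval -0.42 to 1.00, edgeR adjusted p = 0.575). Nor were the miR-181a passenger strands. miR-181a-2-3p, from chromosome 9, was at 103 and 132 CPM in Ctrl and 138 and 179 CPM in RS, with a log2 fold change of 0.43 (95% interval -0.30 to 1.15, edgeR adjusted p = 0.413). miR-181a-3p, from chromosome 1, was at 21.5 and 48.6 CPM in Ctrl and 19.1 and 41.9 CPM in RS, and its log2 fold change was -0.21 (95% interval -1.40 to 0.97, edgeR adjusted p = 0.812). The intervals of both 3p members lie below that of miR-181a-5p, 1.53 to 2.27, though the differences between members were not tested. miR-181c-3p had 3 and 2 counts in Ctrl and 7 and 1 in RS, too few to compare.

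**Figure D1:**
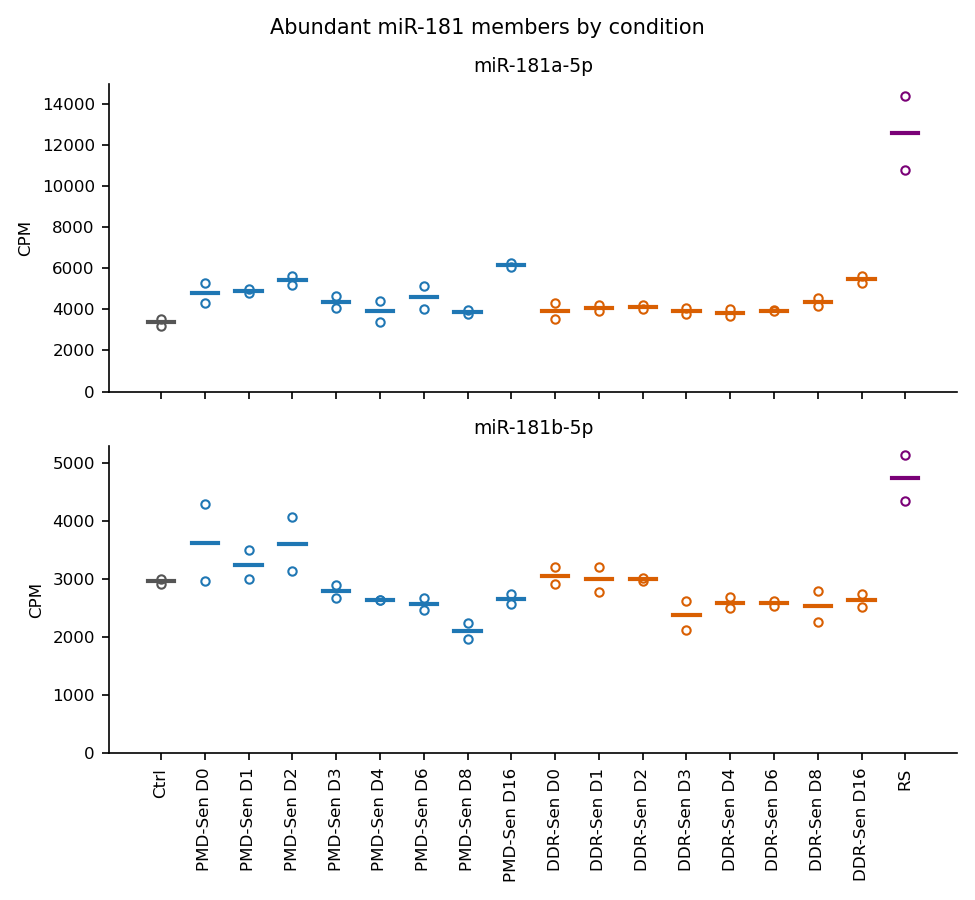
Level of miR-181a-5p (top) and miR-181b-5p (bottom) in scaled counts (CPM) in the 18 conditions; circles are the 2 libraries of a condition and bars their mean. The RS libraries of miR-181a-5p, at 10795 and 14388 CPM, stand above all others, and the D16 means of both series come next for this member but not for miR-181b-5p.

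In the PMD-Sen series, miR-181a-5p stood above Ctrl from the end of treatment onwards in its means, with the lowest libraries at D4 and D8. D0 gave 5284 and 4313 CPM, D1 gave 4801 and 4998, D2 gave 5177 and 5635, and D3 gave 4078 and 4641. D4 followed with 4430 and 3376 CPM, D6 with 5146 and 4018, D8 with 3763 and 3993, and D16 with 6276 and 6066. Of these 8 time points only D4 overlapped with Ctrl, in its replicate 2.

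miR-181a-5p rose at PMD-Sen D2, by a log2 fold change of 0.68 (SE 0.18, edgeR adjusted p = 0.0314), where 2.50% of all tested miRNAs were called. That call was lost whenever any of the 4 libraries compared was left out, with log2 fold changes of 0.61 to 0.76. A DESeq2 scaling of the same fit also ended it (edgeR adjusted p = 0.0558), as did leaving out the filter on low counts and a fit of the 4 libraries alone. miR-181a-5p rose again at PMD-Sen D16, by 0.87 (SE 0.18, a fold of 1.83, edgeR adjusted p = 0.00182), and there 16.7% of all tested miRNAs were called. This was the sixth smallest p of that comparison, and the call was kept whichever library was left out, with a log2 fold change of 0.80 to 0.95. The other 6 PMD-Sen time points had log2 fold changes of 0.20 to 0.54 and were not called (edgeR adjusted p of 0.123 to 0.651).

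In the DDR-Sen series the same member varied less. D0 gave 3533 and 4319 CPM, D1 gave 4223 and 3924, D2 gave 4203 and 4029, and D3 gave 3763 and 4078. D4 followed with 3683 and 4000 CPM, D6 with 3981 and 3899, D8 with 4175 and 4567, and D16 with 5271 and 5644. The D16 libraries were the highest of the series, and from D1 on no DDR-Sen library was as low as the higher Ctrl library.

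miR-181a-5p rose at DDR-Sen D16 by a log2 fold change of 0.70 (SE 0.18, a fold of 1.62, edgeR adjusted p = 0.00481), where 22.8% of all tested miRNAs were called. Without Ctrl replicate 1 it was 0.62 and the call was lost (edgeR adjusted p = 0.0661). At DDR-Sen D16 2 of the 7 fibroblast miRNAs fell, miR-145-5p (log2 fold change -1.05, SE 0.24, edgeR adjusted p = 0.00193) and miR-143-3p (-1.02, SE 0.37, edgeR adjusted p = 0.0470). The median log2 fold change of the 7 was -0.23 there and 0.08 at PMD-Sen D16, beside -0.03 and 0.05 over all tested miRNAs. Their part in the levels of miR-181a-5p was not tested. The log2 fold changes of the other 7 DDR-Sen time points were 0.19 to 0.37 and were not called (edgeR adjusted p of 0.178 to 0.730). Of these, D8 was called in a fit of its 4 libraries alone (edgeR adjusted p = 0.0361). The mean of miR-181a-5p was above the Ctrl mean at all 16 time points of both series, all of which were set against the same 2 Ctrl libraries.

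Ordered by the mean, miR-181a-5p was highest in RS, then in PMD-Sen D16, DDR-Sen D16 and PMD-Sen D2, and lowest in Ctrl. Of the 17 pairs of neighbours in this order, 13 overlapped between their libraries. RS, PMD-Sen D16 and Ctrl were each set apart from every neighbour, and the remaining gap was between PMD-Sen D2 and PMD-Sen D1.

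miR-181b-5p took another course. In PMD-Sen, D0 gave 4282 and 2954 CPM, D1 gave 2992 and 3489, D2 gave 3138 and 4059, and D3 gave 2667 and 2899. D4 followed with 2640 and 2642 CPM, D6 with 2471 and 2669, D8 with 1968 and 2243, and D16 with 2570 and 2746. The highest values thus lay in the first days and the lowest mean of all 18 conditions was at PMD-Sen D8. In DDR-Sen, D0 gave 2913 and 3196 CPM, D1 gave 2780 and 3205, D2 gave 2969 and 3015, and D3 gave 2121 and 2626. D4 followed with 2497 and 2683 CPM, D6 with 2614 and 2537, D8 with 2256 and 2794, and D16 with 2738 and 2519. At D16 both series were below both Ctrl libraries, without a call, the log2 fold changes being -0.15 (95% interval -0.53 to 0.22, edgeR adjusted p = 0.552) in PMD-Sen and -0.17 (95% interval -0.55 to 0.21, edgeR adjusted p = 0.535) in DDR-Sen. The largest difference of miR-181b-5p outside RS was at PMD-Sen D8, a log2 fold change of -0.49, which was not called (edgeR adjusted p = 0.0856). It was called with a filter of a mean of at least 10 counts (edgeR adjusted p = 0.0498) and with DESeq2 (adjusted p = 0.0360). In its order of means, 15 of 17 neighbours overlapped, and RS and the next condition did not.

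Over the 17 comparisons with Ctrl and the 6 tested members, 6 of 102 tests were called, all of them higher than Ctrl, beside 7.14% of the tests of all miRNAs. Besides the 3 in RS these were the calls of miR-181a-5p at PMD-Sen D2, PMD-Sen D16 and DDR-Sen D16. The study called miRNAs by an unadjusted DESeq2 p under 0.05 and an absolute log2 fold change over 1. With these thresholds applied to the edgeR fit, 2 of the 102 tests passed, miR-181a-5p and miR-181c-5p in RS. Of the tests of all miRNAs 9.89% passed in the same way.

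**Figure D2:**
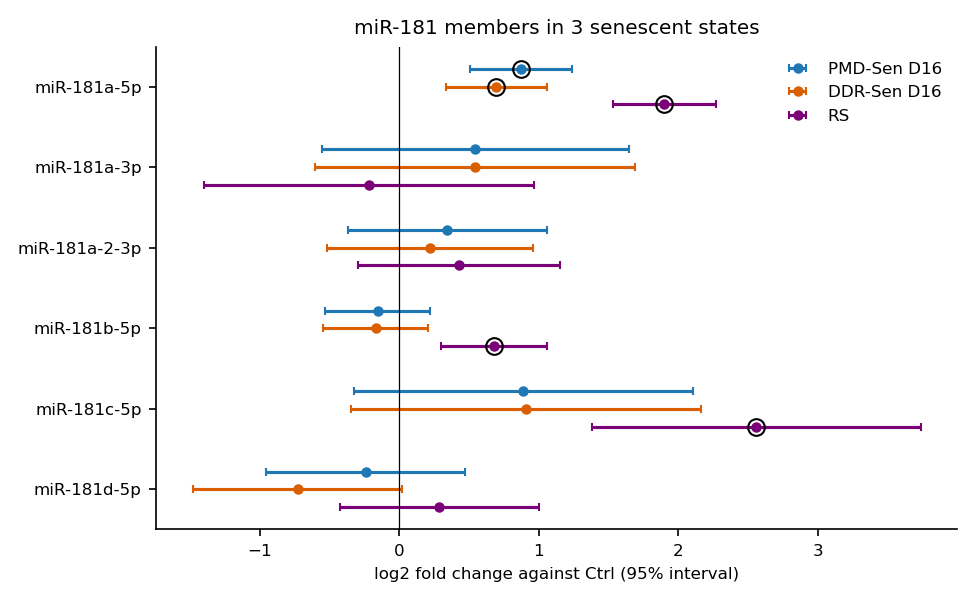
Log2 fold change against Ctrl of the 6 tested members in RS and at D16 of both series; points are edgeR estimates from 2 libraries a condition, bars 95% intervals, and a ring marks an adjusted p under 0.05. Rings mark miR-181a-5p in all 3 states and miR-181b-5p and miR-181c-5p in RS, where miR-181a-5p is at 1.90 with an interval that does not reach those of D16.

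The 4 scarce members that were tested gave no call in the 64 tests at the 16 time points, of which 1 had an unadjusted edgeR p under 0.05, and DESeq2 also made 0 calls. Over all miRNAs and the 17 comparisons with Ctrl, RS included, 7.14% of the tests were called. With counts as low as 2 in a library, the absence of calls does not show that these members were stable. miR-181c-5p ranged from 6.89 to 65.5 CPM outside RS, with the lowest mean of 22.2 CPM in Ctrl, and its means at all 16 time points were above that of Ctrl. At D16 it was at 47.9 and 37.4 CPM in PMD-Sen and 31.1 and 55.6 CPM in DDR-Sen. Its log2 fold changes there were 0.89 (95% interval -0.32 to 2.10, edgeR adjusted p = 0.287) and 0.91 (95% interval -0.35 to 2.16, edgeR adjusted p = 0.304), so that a difference of the size seen in miR-181a-5p was not detectable at this depth. miR-181d-5p ranged from 53.7 to 147 CPM with a mean above that of Ctrl at 3 of 16 time points. The D16 libraries had 77.8 and 112 CPM in PMD-Sen and 80.4 and 53.7 CPM in DDR-Sen, its lowest mean, where the log2 fold change was -0.73 (95% interval -1.48 to 0.02, edgeR adjusted p = 0.160).

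Of the 3p strands of miR-181a, miR-181a-2-3p ranged from 91.9 to 217 CPM, with its mean above that of Ctrl at 15 of 16 time points. Its highest means were in DDR-Sen, at D1 (195 CPM), D2 (190 CPM) and D4 (188 CPM), and its lowest was at PMD-Sen D2 (115 CPM). miR-181a-3p ranged from 12.9 to 89.2 CPM and had a mean above that of Ctrl at 10 of 16 time points, with the highest mean at PMD-Sen D4 (65.5 CPM) and the lowest at DDR-Sen D0 (28.1 CPM). For both 3p members, and for miR-181d-5p, all 17 pairs of neighbours in the order of means overlapped. miR-181c-3p had 0 to 28 counts, the most in the deepest library, PMD-Sen D16 replicate 1.

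**Figure D3:**
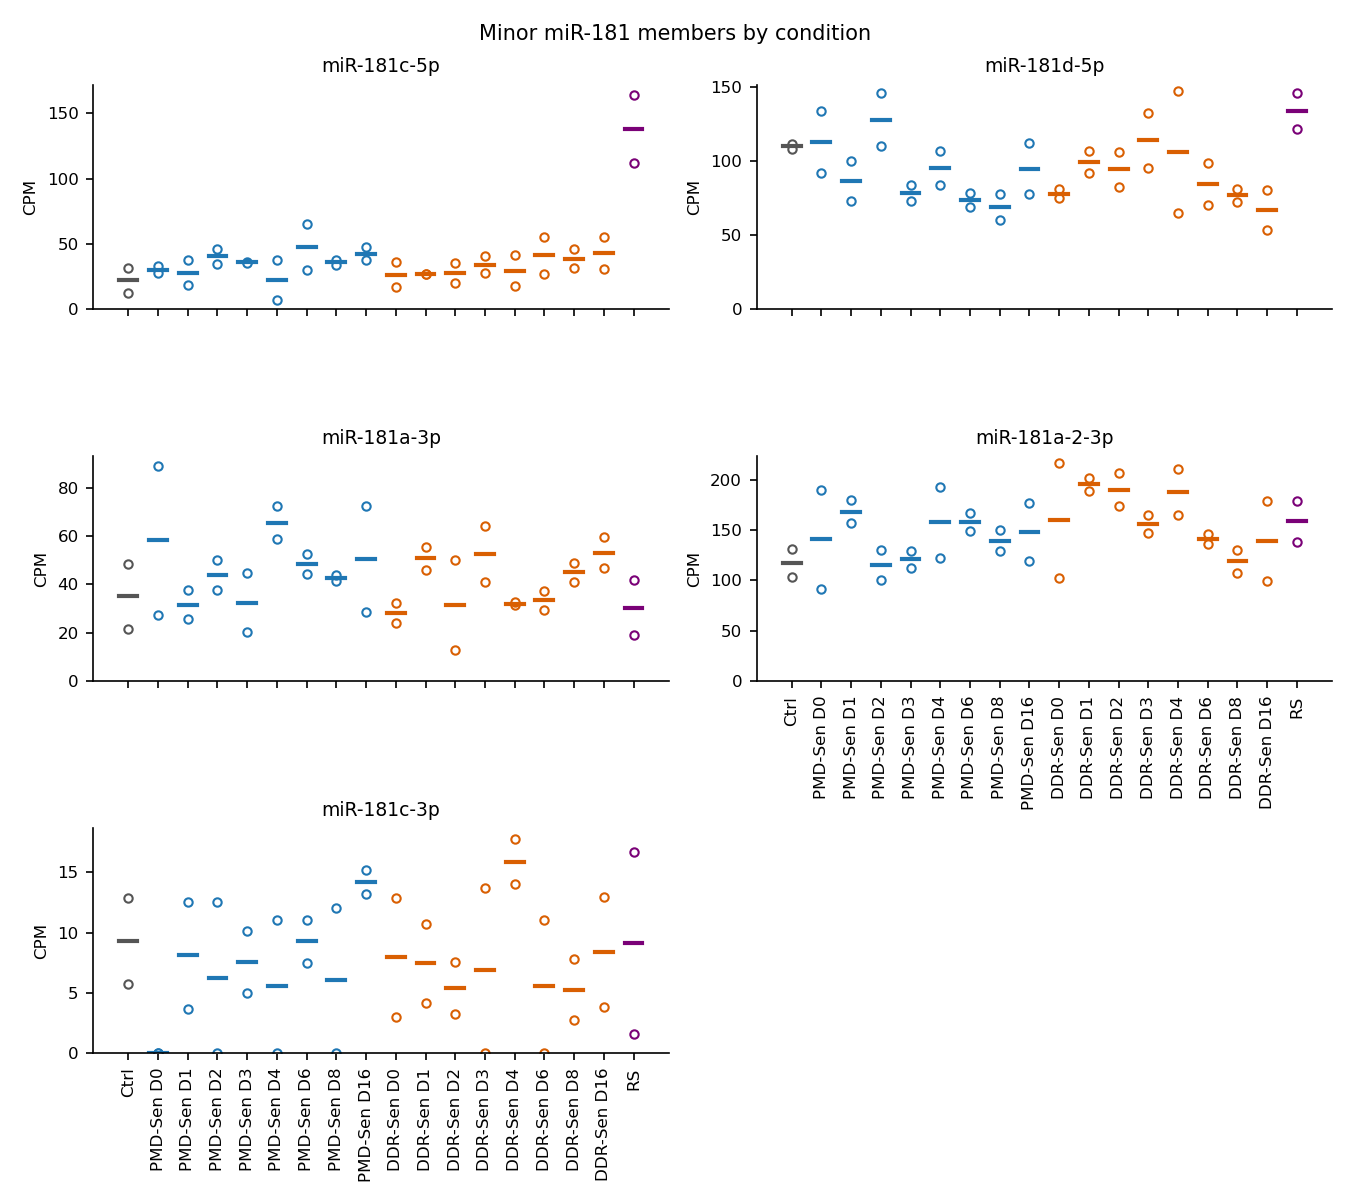
Level in scaled counts (CPM) of the 5 scarce members in the 18 conditions, each panel on its own axis from 0; circles are the 2 libraries of a condition and bars their mean. miR-181c-5p is highest in RS (112 and 164 CPM), while the other 4 show no such separation of RS.

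The 3 senescent endpoints were then set against each other, since they differ in how senescence was reached. miR-181a-5p was lower in PMD-Sen D16 than in RS by a log2 difference of -1.03 (SE 0.18, edgeR adjusted p = 0.000429), and lower in DDR-Sen D16 than in RS by -1.21 (SE 0.18, edgeR adjusted p = 5.50e-05). The first was the second smallest p of the 360 miRNAs in its comparison and the second was the smallest in its own. The calls in PMD-Sen D16 against RS were 3 of 6 members, all lower (miR-181a-5p, miR-181b-5p and miR-181c-5p), where 9.72% of all tested miRNAs were called and 3.06% were called as lower. In DDR-Sen D16 against RS they were 2 of 6 members, both lower (miR-181a-5p and miR-181b-5p), where 4.44% of all tested miRNAs were called and 2.50% were called as lower. The 2 comparisons share the RS libraries.

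miR-181b-5p was lower than in RS by a log2 difference of -0.83 in PMD-Sen D16 (SE 0.18, edgeR adjusted p = 0.00355) and of -0.85 in DDR-Sen D16 (SE 0.18, edgeR adjusted p = 0.00513). The first of these calls was lost without PMD-Sen D16 replicate 1 (edgeR adjusted p = 0.0850) or RS replicate 1 (edgeR adjusted p = 0.0596), and the second without RS replicate 1 (edgeR adjusted p = 0.0768) or either DDR-Sen D16 library (edgeR adjusted p of 0.0967 and 0.107). miR-181c-5p was lower by -1.67 in PMD-Sen D16 (SE 0.49, edgeR adjusted p = 0.0263), a call that was lost without either PMD-Sen D16 library or RS replicate 2 (edgeR adjusted p of 0.117 to 0.196). In DDR-Sen D16 its difference was -1.65 (SE 0.51, edgeR adjusted p = 0.0595), just above the threshold, and it was called with a filter of a mean of at least 10 counts (edgeR adjusted p = 0.0397), which made 6 calls between endpoints. It also passed the thresholds of the study. With a fit on the 4 libraries alone none of the 5 calls passed the threshold, and miR-181a-5p then had edgeR adjusted p of 0.0688 and 0.280.

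When the D16 cells of both series were compared, none of the 6 members was called by edgeR or DESeq2, where 0.556% of all tested miRNAs were called by edgeR, and 0 members had an unadjusted p under 0.05. The log2 difference of miR-181a-5p was 0.18 (95% interval -0.18 to 0.54, edgeR adjusted p = 0.782) and that of miR-181b-5p 0.02 (95% interval -0.36 to 0.39, edgeR adjusted p = 0.970). These intervals do not show that the members are alike in the 2 states.

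Over the course of senescence, D6, D8 and D16 were compared with D1, D2 and D3. In PMD-Sen 1 of 6 members fell and none rose, where 28.9% of all tested miRNAs were called. This was miR-181b-5p, whose 6 early libraries ranged from 2667 to 4059 CPM (median 3065, mean 3208 ± 498, SD, n = 6) and whose 6 late libraries ranged from 1968 to 2746 CPM (median 2521, mean 2444 ± 292). The ranges overlapped, each SD spans the days as well as the replicates, and the log2 difference was -0.39 (SE 0.11, edgeR adjusted p = 0.00590). The call was lost without PMD-Sen D6 replicate 1 (-0.31, edgeR adjusted p = 0.0520) and without a filter on low counts (-0.22, edgeR adjusted p = 0.656). In DDR-Sen 0 of 6 members were called, where 15.8% of all tested miRNAs were, and DESeq2 made 0 calls. In edgeR 2 members had an unadjusted p under 0.05. These were miR-181a-2-3p, with a log2 difference of -0.44 (SE 0.20, edgeR adjusted p = 0.130), and miR-181d-5p, with -0.44 (SE 0.21, edgeR adjusted p = 0.137). miR-181b-5p had a log2 difference of -0.10 in DDR-Sen (edgeR adjusted p = 0.562), and the difference between the series was -0.29 (95% interval -0.59 to 0.02, edgeR adjusted p = 0.258), so that its fall was not shown to be particular to PMD-Sen. Of the differences between the series none of the 6 members passed, beside 3.61% of all tested miRNAs, and 1, miR-181a-2-3p, had an unadjusted p under 0.05 in edgeR. DESeq2 made 0 calls there.

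miR-181a-5p did not pass this comparison, with log2 differences of -0.02 in PMD-Sen (95% interval -0.23 to 0.18, edgeR adjusted p = 0.851) and 0.17 in DDR-Sen (95% interval -0.04 to 0.38, edgeR adjusted p = 0.254). Its PMD-Sen libraries ranged from 4078 to 5635 CPM early and from 3763 to 6276 CPM late, the late range holding both the low D8 and the high D16 values.

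Across D1 to D16, with the day as a factor, none of the 6 members differed between PMD-Sen and DDR-Sen after adjustment, where 26.1% of the 284 miRNAs tested in this fit were called. miR-181a-5p ranged from 3376 to 6276 CPM in the 14 PMD-Sen libraries (median 4721) and from 3683 to 5644 CPM in the 14 DDR-Sen libraries (median 4054), and its mean was higher in PMD-Sen on 6 of 7 days. The log2 difference was 0.16 (SE 0.06, edgeR adjusted p = 0.0614), and 1 of the 6 members, this one, had an unadjusted p under 0.05. It was close to the threshold, and passed it with DESeq2 size factors in edgeR (0.19, edgeR adjusted p = 0.0287), with total counts as the scaling (0.32, edgeR adjusted p = 0.00114), with a filter of a mean of at least 10 counts (0.21, edgeR adjusted p = 0.00918) and with DESeq2 (0.18, DESeq2 adjusted p = 0.0196). Total counts moved the median of all tested miRNAs in this comparison by 0.161, and with them the calls of all miRNAs went from 29 higher and 45 lower in PMD-Sen to 88 higher and 21 lower, while with DESeq2 size factors they were 39 higher and 38 lower. The log2 differences of the other 5 members were -0.13 to 0.09.

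Ratios within a library do not depend on the scaling between libraries, and were used to describe the balance of the members. Each pair of ratios is given with the lower library first. The count of miR-181b-5p was 84.5% and 91.2% of that of miR-181a-5p in the Ctrl libraries, the latter being the highest of the 36 libraries. At D16 it was 41.0% and 45.3% in PMD-Sen and 44.6% and 51.9% in DDR-Sen, and in RS 30.2% and 47.5%. All 6 libraries of the senescent endpoints thus lay well under Ctrl. Every other library also lay under both Ctrl libraries, the highest being DDR-Sen D0 replicate 1 at 82.4%. PMD-Sen D6 replicate 1, at 48.0%, was inside the range of the endpoints, so a ratio under Ctrl is not particular to them. With 2 libraries against 2, the smallest two-sided p that an exact permutation test can give is 0.333, and none was run.

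Between early and late days the ratio of miR-181b-5p to miR-181a-5p was 65.4% ± 4.56 early and 51.5% ± 9.01 late in PMD-Sen (SD, n = 6 each), a log2 difference of -0.36 (two-sided exact permutation p = 0.0108, adjusted p = 0.108 over the 10 ratio tests). In DDR-Sen it was 68.9% ± 8.81 early and 57.1% ± 8.30 late, a log2 difference of -0.28 (two-sided exact permutation p = 0.0411, adjusted p = 0.206). None of the 10 tests, of 5 ratios in 2 series, passed after adjustment. Each n of 6 holds 2 libraries a day, from D1, D2 and D3 or from D6, D8 and D16. The SD therefore mixes differences between days with those between replicates, and the permutation did not take the day into account. The ratio in PMD-Sen passed without PMD-Sen D6 replicate 2, with a log2 difference of -0.44 (two-sided exact permutation, adjusted p = 0.0433). The ratio of miR-181a-3p to miR-181a-5p in DDR-Sen was -0.11 late minus early on the log2 scale with all libraries, and -0.42 without DDR-Sen D2 replicate 2, where it passed (two-sided exact permutation, adjusted p = 0.0433).

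The 3p strands were lowest in proportion to miR-181a-5p in RS, where miR-181a-5p itself was highest. Their own levels in RS lay within the range of the other libraries. The low ratios are thus not a result apart from the level of miR-181a-5p, and those of miR-181a-3p rest on 8 and 26 counts. The count of miR-181a-3p was 0.177% and 0.291% of that of miR-181a-5p in the RS libraries, the lowest 2 of the 36, against 0.319% to 2.14% in the others and 0.672% and 1.37% in Ctrl. That of miR-181a-2-3p was 1.24% and 1.28% in RS, again the lowest 2, against 1.74% to 6.14% in the others and 3.23% and 3.72% in Ctrl. This last ratio was added after the values of the members had been seen. miR-181c-5p, by contrast, was 1.04% and 1.14% of miR-181a-5p in RS, inside the range of 0.204% to 1.42% of the other libraries. The count of miR-181d-5p was 2.10% to 5.90% of that of miR-181b-5p over all libraries, and 2.35% and 3.37% in RS.

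**Figure D4:**
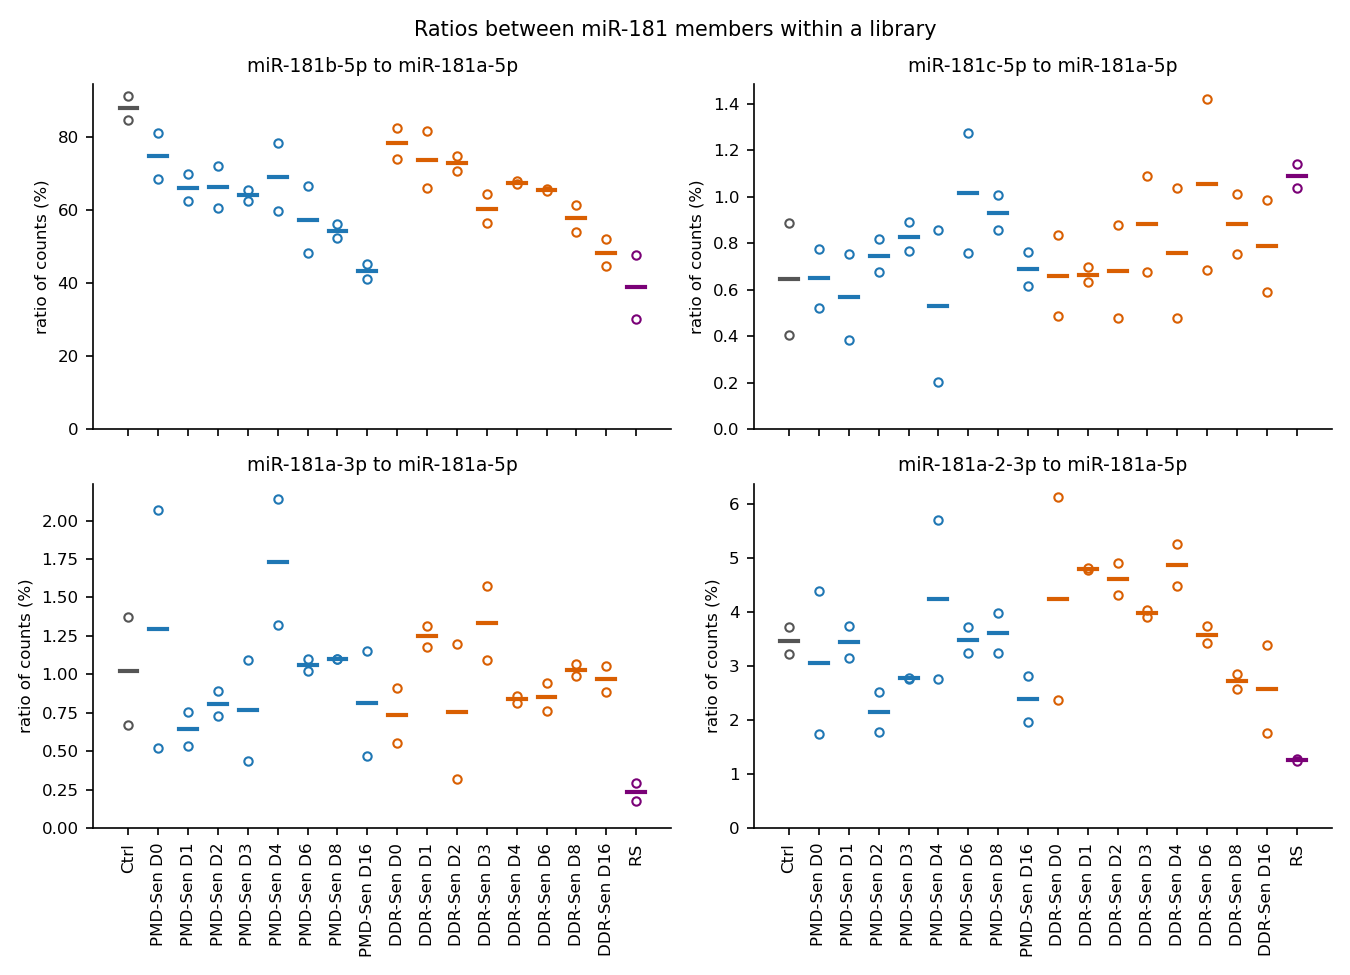
Count of miR-181b-5p, miR-181c-5p, miR-181a-3p and miR-181a-2-3p as a percentage of the count of miR-181a-5p in the same library, in the 18 conditions; circles are the 2 libraries of a condition and bars their mean. The ratio of miR-181b-5p is highest in Ctrl (84.5% and 91.2%), and those of both 3p strands are lowest in RS.

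Other miRNAs were compared with the family as a description. Over the 18 condition means of log2 CPM, the 5 tested miRNAs outside the family with the highest Pearson r to miR-181a-5p were miR-433-3p (0.853), miR-130a-3p (0.756), miR-383-5p (0.705), miR-654-5p (0.698) and miR-369-5p (0.668). Without RS, which is 1 of the 18 points, the r of miR-433-3p was 0.574 and that of miR-383-5p 0.244, so that likeness rests in part on RS. Within the family, the r to miR-181a-5p was 0.881 for miR-181c-5p (0.610 without RS) and 0.688 for miR-181b-5p (0.286 without RS). It was -0.12 for miR-181a-3p (0.271 without RS) and -0.00449 for miR-181a-2-3p (-0.182 without RS), the strands from the same hairpins. Both are scarce, with as few as 3 and 10 counts in a library. For miR-181b-5p the highest were miR-130a-3p (0.762), miR-652-3p (0.732) and miR-361-3p (0.700). The points of each correlation share libraries and scaling.

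The miRNAs of the neighbouring cluster on chromosome 19 allow the place of miR-181c and miR-181d to be set beside another transcript. MIR23A, MIR27A and MIR24-2 lie in exons of MIR23AHG on the opposite strand, with 38039 bases between MIR23A and MIR181C. All 6 of their mature miRNAs were tested. In RS 1 rose, miR-24-3p (log2 fold change 0.55, SE 0.20, edgeR adjusted p = 0.0472), and 1 fell, miR-27a-5p (-1.31, SE 0.41, edgeR adjusted p = 0.0200), and the median of the 6 was 0.12, as over all tested miRNAs. miR-24-3p is also made from a gene on chromosome 9. At D16 miR-23a-5p (-2.09) and miR-27a-5p (-1.64) fell in PMD-Sen, and miR-27a-5p (-1.64) fell in DDR-Sen. miR-23a-3p and miR-27a-3p, the more abundant strands of their hairpins, had log2 fold changes of 0.06 to 0.27 in the 3 states and were not called. miR-24-3p, called in RS, was abundant too, with a median of 20817 CPM beside 22521 CPM for miR-23a-3p and 1980 CPM for miR-27a-3p.

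Of the miRNAs described together with miR-181a and miR-181b in senescent keratinocytes, miR-130b-3p was not called in RS (log2 fold change -0.39, edgeR adjusted p = 0.468) or PMD-Sen D16 (-0.60, edgeR adjusted p = 0.247), and fell at DDR-Sen D16 (-1.43, SE 0.39, edgeR adjusted p = 0.00771). miR-138-5p, with 0 to 12 counts, did not pass the filter. Of 8 miRNAs described to target SIRT1, miR-138-5p again among them, 4 were tested. miR-217-5p has no row under that name, and a row named miR-217, without an arm, was not matched to it. miR-9-5p and miR-135a-5p did not pass the filter. miR-34a-5p, a p53 target, rose at PMD-Sen D16 (log2 fold change 0.82, SE 0.27, edgeR adjusted p = 0.0362), and miR-22-3p rose at DDR-Sen D16 (0.86, SE 0.29, edgeR adjusted p = 0.0296). None of the 4 was called in RS by edgeR or DESeq2, where miR-34a-5p had a log2 fold change of 0.70 (SE 0.27, edgeR adjusted p = 0.0626) and 1 of the 4 had an unadjusted p under 0.05. miR-132-3p and miR-199a-5p had log2 fold changes of -0.62 to 0.59 in the 3 states and were not called. The median log2 fold change of the 4 in RS was 0.11, and 0.12 over all tested miRNAs.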

How the data were processed

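Small RNA of 36 libraries (18 conditions, 2 biological replicates each) was sequenced with the NEXTFLEX kit. The authors trimmed, mapped (GRCh38) and counted the reads against miRBase with the exceRpt pipeline, and the deposited values are expected counts per mature miRNA, not normalized, in which reads matching several miRNAs are divided. Totals were 81668 to 1933435 per library. Members were found by name. The members and lists were chosen with earlier results of these data known. Named are the 7 members, other miR-181 rows and seed mates, the 3 lists given, and the 5 and 3 tested miRNAs most like miR-181a-5p and miR-181b-5p.

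Counts were rounded and analysed with edgeR 4.0.16 in R 4.3.3 (quasi-likelihood F test, TMM, filterByExpr, 18 conditions in one fit of all libraries, 18 residual degrees of freedom). The filter left 360 miRNAs, which held at least 99.8% of the counts of each library. The fit between series used the 28 libraries of D1 to D16 with day as a factor and 284 miRNAs. P-values were adjusted by Benjamini-Hochberg over all tested miRNAs, and a call is an adjusted p under 0.05. The study itself used DESeq2, an unadjusted p under 0.05 and an absolute log2 fold change over 1. DESeq2 1.42.0 was run as an alternative, and the counts of calls by these thresholds come from the edgeR fit. SE is the absolute log2 fold change divided by the square root of F. CPM use TMM-scaled totals, and correlations log2 CPM with a prior count of 2. Ratios of counts plus 0.5 were compared by exact permutation over libraries. Intervals cover library spread as estimated over all conditions together, not within the conditions compared alone. Counts carry no molecular identifiers in this table. Other alternatives were size factors, total counts, 2 filters, a replicate block, fits of 4 libraries and leaving out each library. The fits were tried on simulated counts with a common spread, and the permutation test on simulated normal values without days. These simulations did not carry the uneven replicates or the days of the real libraries. Gene places are from GENCODE and sequences from RefSeq (GRCh38.p14).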

Additional observations from a re-analysis of the deposited data

How the results depend on the processing

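Against Ctrl 6 member tests were called, and 2 by the thresholds of the study applied to the edgeR fit. The settings other than leaving out a library gave 2 to 7. Leaving out 1 library gave 3 to 6, the lowest without Ctrl replicate 1. Late against early, 1 call became 0 by the thresholds of the study and without a filter, and leaving out 1 library gave 0 to 1 (0 without PMD-Sen D6 replicate 1). Between PMD-Sen and DDR-Sen, 0 calls became 1 with DESeq2 size factors in edgeR, 2 with total counts, 1 with a mean of at least 10 counts and 1 with DESeq2, and leaving out 1 library gave 0 to 1 (1, miR-181a-5p, without replicate 2 of PMD-Sen D4 or D6, replicate 1 of DDR-Sen D1 or D6, or replicate 2 of DDR-Sen D1, D2, D3, D4, D8 or D16). Between endpoints, 5 calls became 2 without a filter, 0 with a fit of 4 libraries and 6 with a mean of at least 10 counts, and leaving out 1 library gave 3 to 4 (3 without PMD-Sen D16 replicate 1 or RS replicate 1). Of the ratios 0 passed, and 0 to 1 with 1 library left out (1 without PMD-Sen D6 replicate 2 or DDR-Sen D2 replicate 2). The log2 fold change of miR-181a-3p in RS, -0.21 and not called, turned to 0.54 without Ctrl replicate 2 and to 0.19 without RS replicate 1, within a range of -1.06 to 0.54. The cause was not tested in any of these cases. miR-181a-5p and miR-181c-5p in RS were called under every alternative run.

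Over 153 pairs of conditions, the correlation of the deviations of replicate 1 had a median of 0.0414 and a range of -0.458 to 0.366. It was over 0.1 in 53 pairs and below 0 in 62. A median near 0 with so wide a range does not decide whether the replicate numbers pair the libraries. A fit with the replicate block gave the same counts of calls (6, 1, 0 and 5). Total counts moved the median log2 fold change of all tested miRNAs by over 0.1 in RS (-0.101), at DDR-Sen D1 to D8 (-0.142 to -0.268) and between the series (0.161). Depth limits miR-181c-5p, miR-181a-3p and miR-181c-3p most, with as few as 2, 3 and 0 counts in a library.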
